A study of Mus musculus with 16 samples.

Results

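Transcripts of 10 genes of amino acid transport and of the ATF4 stress response were followed across wild-type and Rybp-deficient mouse embryonic stem (ES) cells. They are the transporter genes Slc7a3, Slc6a15, Slc7a11, Slc7a5 and Slc3a2, the regulators Atf4, Ddit3 and Trib3, and the enzyme genes Asns and Chac1. Members are all probe sets annotated to these genes, 16 of the 45101 probe sets on the array, and the probe set with the highest mean stood for each gene, 10 of the 18193 genes measured. The genes were selected on earlier results of these arrays, among them the lower Slc6a15 intensity of Rybp-deficient cells at day 4 and the differences of stress genes by replicate number, and it is not recorded which values led to each of the others. Adjusted p-values below are therefore those of a fit over all genes and are not independent support for the choice of these 10.

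The cells were ES clones 10 and 15 of a 129/B6 hybrid background. Rybp is a subunit of variant forms of the Polycomb repressive complex PRC1, which helps to keep developmental genes silent. It was depleted with 4-hydroxytamoxifen (OHT) at 800 nM for 24 hours, and OHT-treated cells are called KO. Control cells were untreated cells of the same clones, labelled wild-type, and RNA was taken at day 4 and at day 12. Each of the 4 groups (control and KO at either day) held 4 arrays: 2 per clone, which the labels number as replicates 1 and 2. OHT was given to no control array, so its own effect and loss of Rybp cannot be told apart, and the labels used here name neither the targeted allele nor a recombinase. Medium with serum and leukaemia inhibitory factor was used throughout, over irradiated fibroblast feeders or gelatin, and the labels do not say which array had which. Nor do they say that replicates were separate cultures, so the spread behind the p-values is that of these samples and may be technical.

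Labels and cell type were checked first. The probe set shared by Rybp and its pseudogene read 2047 to 3434 on the control arrays and 84.9 to 256 on the KO arrays. All 10 ES cell markers examined were bright, for example Pou5f1 at 7558 to 13405 and Nanog at 7762 to 13053 over the 16 arrays. The 15 fibroblast markers measured ran from dim to bright: Dcn read 4.18 to 115, Col1a1 98.6 to 512, Tagln 558 to 1586 and Acta2 1324 to 3162. The summed level of the list was 4251 to 6349 at day 4 and 6123 to 7950 at day 12. Values are deposited intensities on a linear scale, already brought to 1 common distribution on all arrays, with a median of 93.3. In such bulk samples fewer cells of a type and less RNA per cell cannot be told apart.

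As background, cells short of amino acids or with unfolded protein in the endoplasmic reticulum phosphorylate the translation factor eIF2alpha. Most translation then slows while that of the Atf4 transcript rises, so the Atf4 protein is controlled largely by translation and the Atf4 transcript level does not measure it. ATF4 binds DNA with C/EBP partners and switches on amino acid transporters, aminoacyl-tRNA synthetases, asparagine synthetase (Asns), and the regulators Ddit3 (CHOP) and Trib3. ES cells divide quickly and depend on a steady uptake of amino acids.

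The core of the element bound by ATF4 and C/EBP proteins was searched for on both strands as TGATGNAA in the RefSeq promoters of the members (GRCm38.p6, 250 bases before to 50 after the start). Promoters were matched for 7 of the 10 members, and 4 of the 7 held the motif: Asns, Chac1, Slc7a11 and Trib3. Among all 32851 promoters of that length 1304 held it, which is 3.97%, and 0.07% held it more than once, as Slc7a11 does. The 200 bases before the start are printed for Asns, Chac1 and Slc7a11, whose motif lies there, and for Ddit3, a regulator of the same pathway with no match in its window. Capitals mark the motif. Asns lies at chr6:7693210-7693409 on the minus strand, Chac1 at chr2:119351042-119351241 on the plus strand, Slc7a11 at chr3:50443614-50443813 on the minus strand and Ddit3 at chr10:127290593-127290792 on the plus strand.
Asns: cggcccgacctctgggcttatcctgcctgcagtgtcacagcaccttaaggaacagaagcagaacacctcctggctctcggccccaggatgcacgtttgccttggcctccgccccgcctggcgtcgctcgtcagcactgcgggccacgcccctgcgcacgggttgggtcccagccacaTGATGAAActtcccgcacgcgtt
Chac1: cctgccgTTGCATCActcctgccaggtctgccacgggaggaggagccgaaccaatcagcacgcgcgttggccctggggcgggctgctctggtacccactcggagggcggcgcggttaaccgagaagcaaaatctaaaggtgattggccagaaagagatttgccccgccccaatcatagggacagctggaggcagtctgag
Slc7a11: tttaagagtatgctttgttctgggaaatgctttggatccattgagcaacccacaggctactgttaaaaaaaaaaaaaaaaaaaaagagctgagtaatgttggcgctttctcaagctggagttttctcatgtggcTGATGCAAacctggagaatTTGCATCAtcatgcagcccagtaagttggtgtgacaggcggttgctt
Ddit3: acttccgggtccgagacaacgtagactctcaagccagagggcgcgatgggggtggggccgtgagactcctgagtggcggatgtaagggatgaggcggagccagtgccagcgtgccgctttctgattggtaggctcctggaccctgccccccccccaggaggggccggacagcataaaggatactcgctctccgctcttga

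The motif begins 23 bases before the start of Asns, and 66 and 47 bases before that of Slc7a11, where the second match is on the opposite strand. In Chac1 it begins 193 bases before the start, on the opposite strand, and in Trib3 14 bases after it, also on the opposite strand. A match describes the letters only and is neither a binding site nor a cause.

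KO cells had lower transcripts of the transporter genes Slc6a15 and Slc7a3, and no called change of the stress regulators. Slc6a15 was about 1.72-fold lower in KO cells at day 4 and 1.83-fold lower at day 12. Slc7a3 was 1.59-fold lower at day 12. At an adjusted p under 0.05, 1 of the 10 members was lower at day 4 and 0 were higher, beside 0.0550% of all genes lower and 0.566% higher. The member counted is Slc6a15, chosen with its lower day 4 level known, so this count is a description and not independent support. At day 12, 2 of 10 were lower and 0 higher, beside 0.896% lower and 2.18% higher among all genes. The median difference of the members, KO minus control on the log2 scale, was -0.08 at day 4 and -0.32 at day 12, against 0.01 at both days over the 18193 genes tested.

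**Figure D1:**
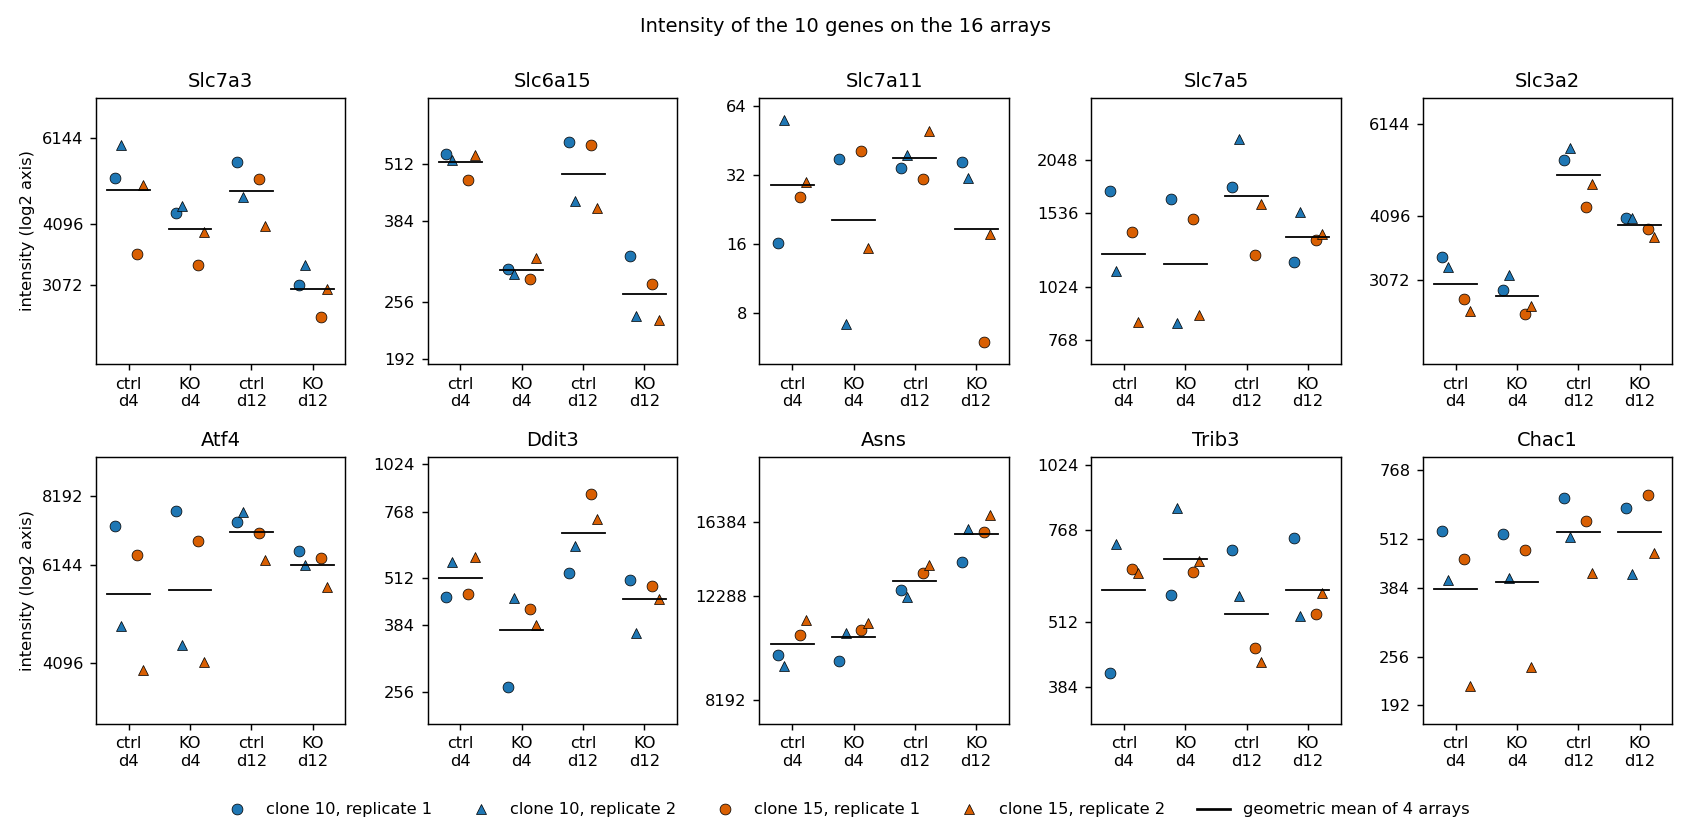
Intensity of the 10 genes (log2 axis, arbitrary units) on each of the 16 arrays, by group on the horizontal axis, with colour for the clone, symbol for the replicate number and a line at the geometric mean of 4 arrays. Slc6a15 is lower on every KO array than on any control array of the same day, and at day 4 Atf4, Slc7a5 and Chac1 part by symbol instead, with circles above triangles.

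Among the transporters, Slc6a15 encodes a sodium-dependent carrier of neutral and branched-chain amino acids. In control cells at day 4 it read 540.0 and 524 in clone 10 and 472 and 536 in clone 15 (replicates 1 and 2 in turn), and in KO cells 303, 294, 288 and 319 in the same order. At day 12 the control arrays read 572, 425, 563 and 412 and the KO arrays 322, 239, 281 and 234. The highest KO array lay below the lowest control array at both days, and across groups the order was control at day 4, control at day 12, KO at day 4 and KO at day 12, with overlap between the days within each condition. KO minus control was -0.78 ± 0.14 (SE, log2) at day 4, the contrast for which the gene was already known. At day 12 it was -0.87 ± 0.14 (limma adjusted p = 0.00544), lower in 4 of 4 pairs of the same clone and number. Within arrays of number 1 and of number 2 the difference was -0.78 and -0.79 at day 4 and -0.92 and -0.82 at day 12. At day 4 the gene passed the threshold only with all 8 arrays of that day in the fit: without any 1 of them it did not, although the difference stayed between -0.82 and -0.75. That fit does not pair arrays by replicate number. With arrays paired by clone, day and number, the SE at day 4 was 0.07.

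Slc7a3 encodes CAT3, a carrier of arginine, lysine and other cationic amino acids. At day 12 its control arrays read 5501 and 4651 in clone 10 and 5055 and 4064 in clone 15, and its KO arrays 3070.1, 3366, 2636 and 3005 in the same order. Every KO array was below every control array. At day 4 the control arrays read 5076, 5952, 3559.7 and 4926 and the KO arrays 4305, 4452, 3366 and 3945. These overlapped, since control clone 15 replicate 1 lay below 3 of the KO arrays, although KO was the lower in each of the 4 pairs. KO minus control was -0.26 ± 0.13 (SE, log2; limma adjusted p = 0.648) at day 4 and -0.67 ± 0.13 (limma adjusted p = 0.0176) at day 12. Within number 1 the day 12 difference was -0.89 and within number 2 it was -0.45. Without any 1 of the 4 day 12 arrays numbered 1 (control or KO, clone 10 or 15), the adjusted p lay between 0.0537 and 0.0617, with differences of -0.65 to -0.60.

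Slc3a2 encodes the heavy chain (4F2hc, CD98) that carries several light-chain exchangers, among them those of Slc7a5 and Slc7a11, to the plasma membrane. At day 12 its control arrays read 5234, 5534, 4256 and 4722 (clone 10 then clone 15) and its KO arrays 4052, 4052, 3869 and 3728. The groups did not overlap, but the difference of -0.32 ± 0.09 (SE, log2) missed the threshold (limma adjusted p = 0.0743). At day 4 control arrays lay between 2688 and 3408 and KO arrays between 2647 and 3153, a difference of -0.08 ± 0.09. Slc7a5 encodes LAT1, the light chain that exchanges large neutral amino acids such as leucine for glutamine. Its KO arrays read 841 to 1658 at day 4 and 1172 to 1544 at day 12, within or across the control ranges of 847 to 1730.5 and 1222 to 2299.8. The differences were -0.08 ± 0.27 and -0.32 ± 0.27 (limma adjusted p = 0.649 at day 12).

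Slc7a11 encodes xCT, the cystine and glutamate exchanger that supplies cysteine for glutathione. Its probe set was dim, at 5.98 to 55.6 over the 16 arrays, with a mean at the 26.5th percentile of probe sets, and its other probe set was dimmer still. At day 4 the control arrays read 16.2, 55.6, 25.6 and 29.9 and the KO arrays 37.5, 7.2, 40.6 and 15.4. KO was the higher in both pairs numbered 1 and the lower in both numbered 2. The differences of -0.51 ± 0.63 at day 4 and -1.03 ± 0.63 at day 12 (SE, log2) are smaller than the spread between pairs, and no change was detectable at this signal. The dimmer probe set gave -1.64 ± 1.16 and 1.23 ± 1.16, so the probe sets differ in sign at day 12.

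The regulators gave no call in KO against control. Atf4 (the brightest of its 3 probe sets) read 3969.9 to 7218 in control and 4112 to 7702 in KO cells at day 4, a difference of 0.03 ± 0.22 (SE, log2) that became -0.014 when arrays were centred on housekeeping genes. At day 12 it read 6287 to 7663 and 5609.6 to 6513, a difference of -0.20 ± 0.22 (limma adjusted p = 0.751), with KO lower in 4 of 4 pairs. The second Atf4 probe set gave 0.13 ± 0.16 at day 4 and -0.14 ± 0.16 at day 12. The third was dim and gave -1.40 ± 0.49 and 0.13 ± 0.49, not called at either day. At day 4 it read 15.3 to 62.0 in control and 6.24 to 14.9 in KO cells, without overlap. Ddit3 encodes CHOP, a C/EBP-family factor linked to cell death under prolonged stress. Its control arrays at day 4 read 458, 566, 465 and 582 and its KO arrays 264, 455, 424 and 384. At day 12 they read 528, 623, 856 and 733 against 508, 366, 489 and 451. KO was lower in 4 of 4 pairs at both days and the groups did not overlap at either, yet the differences of -0.46 ± 0.18 and -0.58 ± 0.18 missed the threshold (limma adjusted p = 0.459 and 0.128). The second, dimmer Ddit3 probe set gave -0.71 ± 0.82 and -0.95 ± 0.82, and there the groups overlapped at both days. Trib3, a pseudokinase that restrains ATF4 and the kinase Akt, read 409 to 723 in control and 577 to 846 in KO cells at day 4. At day 12 it read 429 to 703 and 526 to 741. The groups overlapped at both days, with differences of 0.20 ± 0.21 and 0.15 ± 0.21, and 0.04 ± 0.17 and 0.0017 ± 0.17 by its second probe set.

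Of the 2 enzymes, Asns makes asparagine from aspartate and glutamine. At day 12 its control arrays read 12546, 12213, 13445 and 13862 and its KO arrays 14026, 15906, 15765 and 16832. Each KO array was above each control array, the only member for which this held. The difference of 0.26 ± 0.09 (SE, log2) missed the threshold (limma adjusted p = 0.153), and the second Asns probe set gave 0.34 ± 0.12. At day 4 control arrays lay between 9347 and 11198 and KO arrays between 9525 and 11079, a difference of 0.04 ± 0.09. Chac1 encodes an enzyme that breaks down glutathione. It read 215 to 535 in control and 240.1 to 527 in KO cells at day 4, and 418 to 652 and 415 to 661 at day 12, so the groups covered nearly the same range. The differences were 0.06 ± 0.29 and -0.003 ± 0.289.

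**Figure D2:**
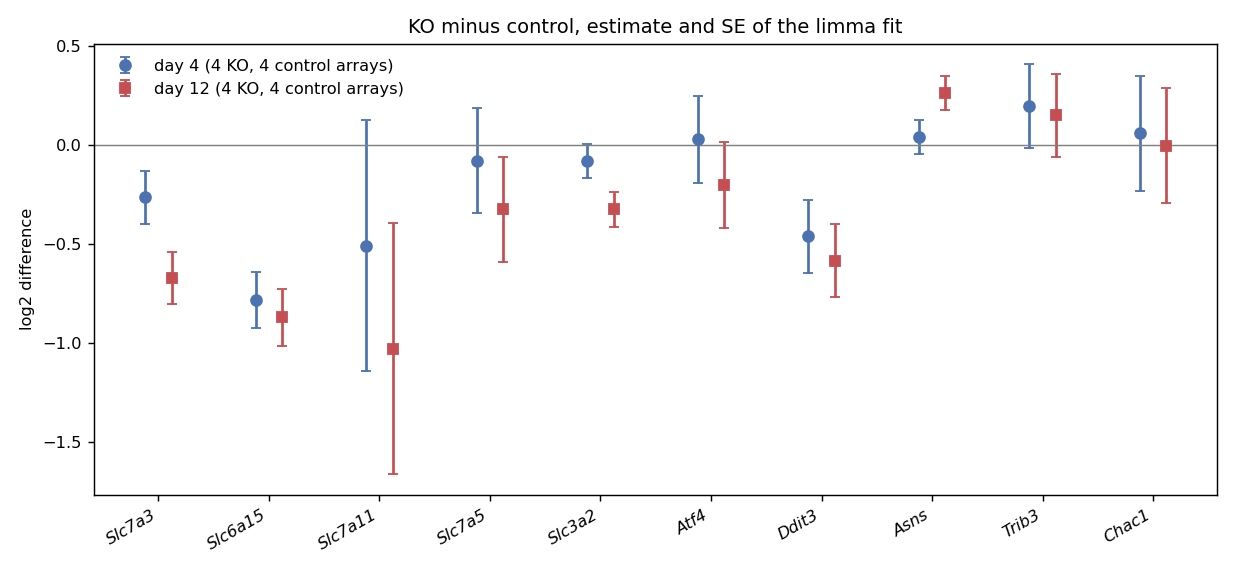
KO minus control (log2 difference, estimate and SE of the fit over 16 arrays) for each gene at day 4 (circles) and day 12 (squares). Slc6a15 lies near -0.8 at both days, 8 of the 10 estimates lie below 0 at day 12 (Chac1 at -0.003), and the long bars of Slc7a11 go with its dim signal.

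Counted by overlap on the probe set used for each gene, 2 of the 10 members (Slc6a15 and Ddit3) had all 4 KO arrays below all 4 control arrays at day 4, beside 2.01% of all genes. At day 12 this held for 4 members, Slc7a3, Slc6a15, Slc3a2 and Ddit3, beside 4.66%, and Asns alone was wholly higher, beside 7.40%. These counts use the contrasts in which at least 1 gene was already known. Fibroblast markers at day 12 had a median difference of 0.21 with 0 of 15 past the threshold, beside 0.896% lower and 2.18% higher among all genes. Their summed level was 6669 to 7950 in KO and 6123 to 7149 in control cells. Of the ES cell markers only Utf1 passed, at -0.82 ± 0.18 (limma adjusted p = 0.0257). Their part in the lower transporter levels was not tested.

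Whether the KO effect itself differed between day 4 and day 12 was tested as an interaction. None of the 10 members passed, as did none of the 18193 genes (0% called by limma, 832 genes at an unadjusted p under 0.05, no member among them). The nearest was Slc7a3, whose KO effect was -0.41 ± 0.19 (SE, log2) lower at day 12 than at day 4, with an unadjusted limma p of 0.0515. Slc3a2 gave -0.24 ± 0.12 and Asns 0.22 ± 0.12. The KO effect was compared between clones in the same way, and again 0 members and 0% of genes passed (584 genes at an unadjusted p under 0.05, no member among them). Differences of the members between clones, clone 15 minus clone 10, ranged from -0.54 to 0.42. The called falls of Slc6a15 and Slc7a3 were seen in both clones: at day 12, pairs of clone 10 gave -0.83 and -0.83 for Slc6a15 and -0.84 and -0.47 for Slc7a3, and pairs of clone 15 gave -1.0 and -0.82, and -0.94 and -0.44.

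Other genes of amino acid handling and stress were examined as lists. Their counts stand beside 0.0550% lower and 0.566% higher among all genes at day 4, and 0.896% and 2.18% at day 12. At such shares a short list without a call is not set apart from all genes. Of 21 further amino acid transporters 1 rose at day 4, Slc36a4, a lysosomal carrier, at 1.96 ± 0.38 (SE, log2; limma adjusted p = 0.0402). At day 12 Slc7a9, a light chain of cystine and basic amino acid transport in kidney, was higher at 1.14 ± 0.24 (limma adjusted p = 0.0238). In the same comparison Slc38a1, a sodium-coupled glutamine carrier, was lower at -0.46 ± 0.11 (limma adjusted p = 0.0455). The medians of this list were -0.10 and -0.05. None passed in either direction at either day among 6 eIF2alpha kinase and phosphatase genes, 14 bZIP partners and stress regulators, 8 serine, one-carbon and proline enzymes, 12 aminoacyl-tRNA synthetases, 10 chaperones of the endoplasmic reticulum, and 8 glutathione and NRF2 target genes. Their medians lay between -0.06 and 0.16 at day 4 and between -0.09 and 0.07 at day 12. The largest day 4 differences of these lists, among genes with a mean above the median, were Cebpb at 0.53, Phgdh at 0.38, Srxn1 at 0.29, Eif2ak4 (GCN2, the kinase that senses uncharged tRNA) at 0.20, Yars at -0.17 and Pdia6 at -0.16. At day 12 they were Cebpb, a C/EBP partner of ATF4, at 0.86 ± 0.28 (limma adjusted p = 0.147), Gclm at -0.64, Aldh18a1 at 0.48, Cars at -0.30, Ppp1r15a at -0.27 and Dnajc3 at 0.21. No gene named in these 2 sentences passed.

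**Figure D3:**
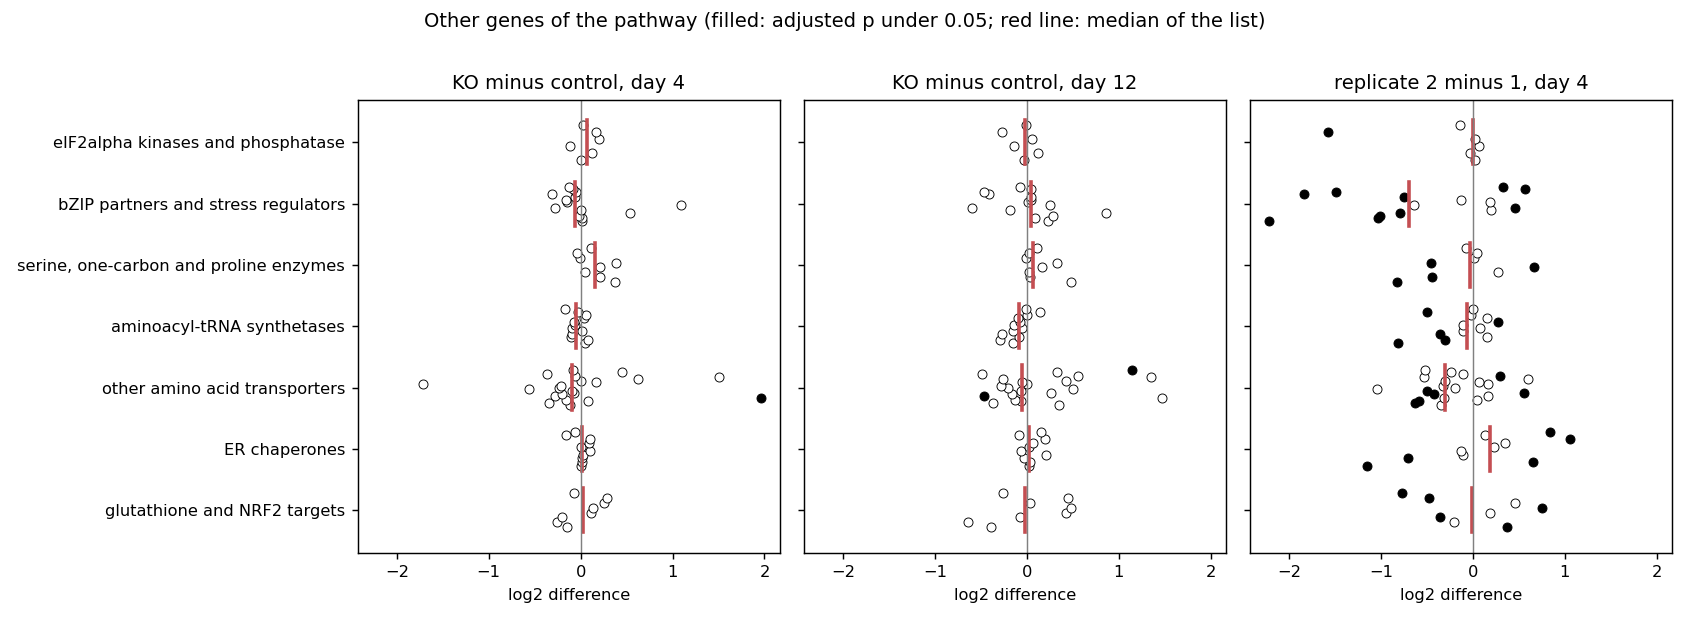
Log2 differences of the other genes of the pathway by list, for KO minus control at day 4 and day 12 and for replicate 2 minus replicate 1 at day 4, with filled points past an adjusted p of 0.05 and a red line at each list's median. The KO panels are centred near 0 with 1 and 2 filled points, whereas the panel by replicate number holds at least 1 filled point in every list. These lie on both sides of 0 except in the eIF2alpha list, whose 1 filled point is below 0.

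Between days, untreated cells differed in Slc3a2. Its control arrays read 2688 to 3408 at day 4 and 4256 to 5534 at day 12, without overlap, a rise of 0.70 ± 0.09 (SE, log2; limma adjusted p = 0.00255). This was 1 of 10 members higher and 0 lower, beside 0.654% and 0.341% of all genes. Asns rose from 9347 to 11198 at day 4 to 12213 to 13862 at day 12, also without overlap, and its difference of 0.35 ± 0.09 missed the threshold (limma adjusted p = 0.0836) but passed with the replicate number as a term (limma adjusted p = 0.0334). These control arrays are the same as in the KO comparisons. Differences of the other members ran from -0.15 (Trib3) to 0.48 (Chac1), with none past the threshold. The second Trib3 probe set gave 0.22 ± 0.17, the opposite sign, and Slc7a3 stood at -0.003 ± 0.134. Dimmer probe sets of Ddit3 (-0.81 ± 0.82), Slc7a11 (-1.54 ± 1.16) and Atf4 (-1.25 ± 0.49) also had the opposite sign to the ones used. The second Atf4 probe set gave 0.05 ± 0.16 and the second Asns probe set 0.30 ± 0.12, both with the same sign. The members' median was 0.38, against 0.02 over all genes. Among the lists Sars, the seryl-tRNA synthetase, rose by 0.62 ± 0.10 (limma adjusted p = 0.0084), and 0 of 8 serine, one-carbon and proline enzymes passed although all 8 values were above 0, led by Mthfd2 at 0.44. None passed in the other lists, whose largest differences were Hmox1 at 0.52, Dnajb9 at -0.46, Eif2ak1 and Vldlr both at 0.40 and Slc1a5 at 0.36. The summed fibroblast marker level of untreated cells was 4251 to 5393 at day 4 and 6123 to 7149 at day 12, without overlap, with Acta2 higher by 0.70 ± 0.13, and its part in the day difference was not tested. In the KO cells Slc3a2 also lay higher at day 12 (3728 to 4052) than at day 4 (2647 to 3153).

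The 2 clones gave no called difference in untreated cells: 0 of 10 members passed, beside 0.0605% of all genes in either direction. The member with the smallest p was Slc3a2, lower in clone 15 by -0.27 ± 0.10 (SE, log2; limma adjusted p = 0.885). None of the pathway lists held a called gene between clones, while the ES cell marker Zfp42 was lower in clone 15 by -1.47 ± 0.15 (limma adjusted p = 0.015).

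The replicate number parted several stress genes at day 4, in control and KO cells of both clones. This pattern was known when the genes were chosen and is given as a description. Atf4 on the 4 arrays numbered 1 read 7218 and 6408 in control and 7702 and 6809 in KO cells (clone 10 then 15), and on those numbered 2 it read 4776, 3969.9, 4404 and 4112. The number 2 arrays were the lower in all 4 pairs, by -0.71 ± 0.07 (SE, log2), without overlap. Slc7a5 read 1730.5, 1379.9, 1658 and 1481 on arrays numbered 1 and 1120.3, 847, 841 and 882 on arrays numbered 2, a difference of -0.76 ± 0.12. Chac1 read 535, 453, 527 and 478 against 400.3, 215, 407 and 240.1, a difference of -0.71 ± 0.17. These were 3 of 10 members past the threshold as lower and 0 as higher, beside 17.8% and 10.6% of all genes. With an intensity-dependent prior a further member passed in the other direction, Slc7a3 at 0.24 (limma adjusted p = 0.0329). The same 3 members were the ones without overlap, beside 16.8% of all genes.

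The remaining members were not called. Slc7a3 was higher on number 2 in 4 of 4 pairs, by 0.24 ± 0.11, and Ddit3 in 3 of 4, by 0.32 ± 0.16. The probe sets of Trib3 differed in sign: the one used gave 0.35 ± 0.18, higher in 3 of 4 pairs, and the second -0.17 ± 0.10. Slc6a15, Slc3a2 and Asns differed by 0.06, 0.002 and 0.06, and centring on housekeeping genes, which lowers each day 4 difference by 0.11, turned these to -0.051, -0.11 and -0.057. That shift is the mean difference of the 10 housekeeping genes, which themselves differed by number at day 4. Of these, 3 passed as higher and 1 as lower, beside 10.6% and 17.8% of all genes. Their summed level was 175307 to 188178 on number 1 and 189522 to 198006 on number 2. The second Asns probe set gave 0.26 ± 0.08, which passed in the fit over all probe sets. The second Atf4 probe set, which read 1882 to 2960.2 at day 4, gave -0.07 ± 0.13 and so did not share the difference of the first. At day 12 only Slc6a15 passed, at -0.39 ± 0.07, with 1 of 10 members lower and 0 higher beside 3.83% and 2.66% of all genes. There Chac1 was again lower in 4 of 4 pairs, by -0.46 ± 0.17, and was the 1 member without overlap, beside 4.89% of genes. Slc7a5 lay the other way than at day 4, higher in 4 of 4 pairs by 0.31 ± 0.12. The second Trib3 probe set passed as lower in the fit over all probe sets, at -0.39 ± 0.10, where the one used gave -0.18 ± 0.19.

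**Figure D4:**
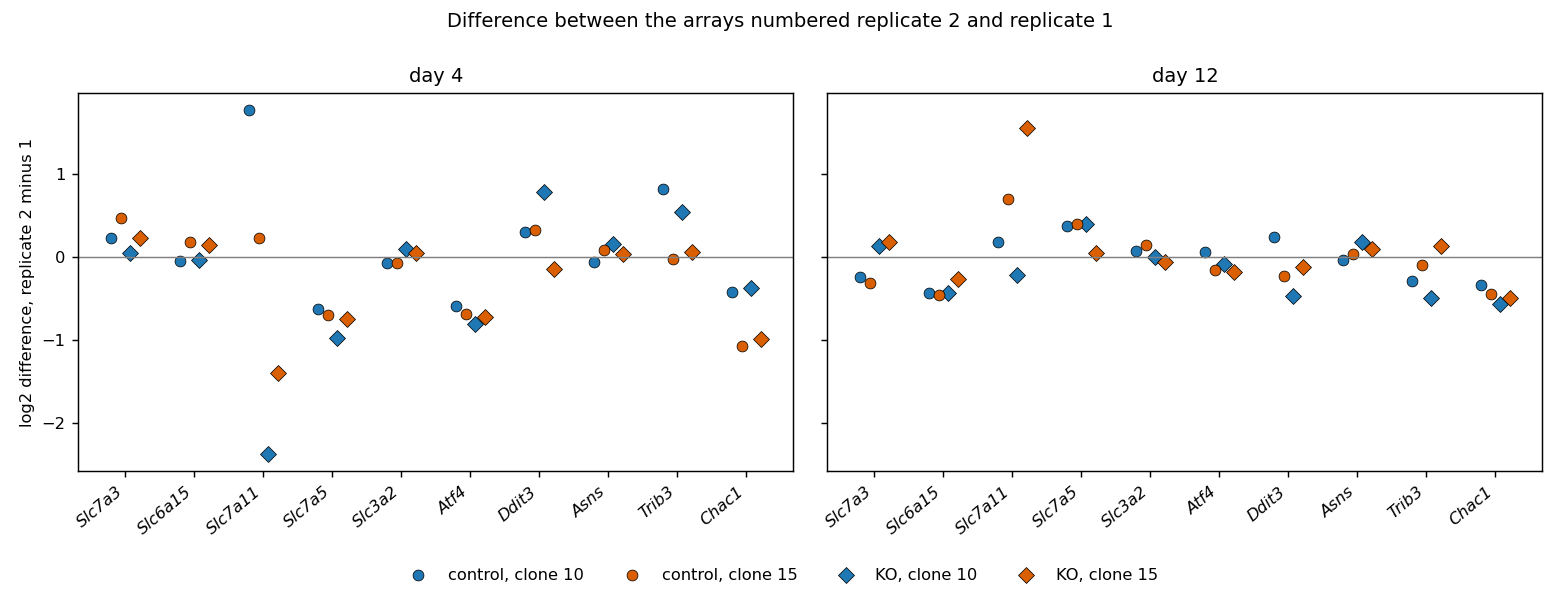
Log2 difference between the arrays numbered replicate 2 and replicate 1, for each gene, condition (circle control, diamond KO) and clone (colour), at day 4 and day 12. At day 4 all 4 points of Slc7a5, Atf4 and Chac1 lie below 0, between -0.37 and -1.07, while at day 12 those of Atf4 lie between -0.18 and 0.06.

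The other genes of the pathway lists differed between the numbers at day 4 in both directions, and their counts are to be read against the 17.8% lower and 10.6% higher among all genes. The lists too were chosen with earlier results of these data known, so their counts and medians are a description and not independent support. Of 14 bZIP partners and stress regulators 7 were lower and 3 higher, with a median of -0.70 against -0.07 over all genes. The largest were Atf3, a stress-induced bZIP factor, at -2.22 ± 0.57 (SE, log2), Sesn2, an mTORC1 inhibitor induced by ATF4, at -1.84 ± 0.12, and Stc2, a secreted stress protein, at -1.49 ± 0.12. Ppp1r15a (GADD34), the inducible subunit of the eIF2alpha phosphatase, was lower by -1.58 ± 0.16, the 1 of 6 genes of its list to pass. Aminoacyl-tRNA synthetases had 4 lower and 1 higher of 12, led by Aars at -0.82, Wars at -0.50 and Gars at -0.36. Further transporters had 4 lower and 2 higher of 21, close to the shares over all genes, with Slc1a4 at -0.63, Slc1a5 at -0.59 and Slc38a4 at 0.55. The biosynthetic enzymes went both ways, with Aldh18a1, of proline synthesis, at -0.83, Phgdh, the first enzyme of serine synthesis, at -0.45 and Mthfd2, a mitochondrial folate enzyme, at 0.67.

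Counts of the remaining lists and markers at day 4 stand beside the same 17.8% lower and 10.6% higher, and no list was tested against all genes. Chaperones of the endoplasmic reticulum had 3 higher and 2 lower of 10 (Calr -1.15, Pdia4 1.05, Sdf2l1 0.84). Glutathione and NRF2 target genes had 2 higher and 3 lower of 8 (Txnrd1 -0.77, Hmox1 0.75, Srxn1 -0.48). Fibroblast markers had 5 lower and 1 higher of 15 (Twist1 -1.80, Col1a1 -1.50, Thy1 -1.36), with a summed level of 4750 to 6349 on number 1 and 4251 to 5068 on number 2. ES cell markers had 4 lower and 2 higher of 10, with Esrrb at -1.24, Fgf4 at -0.75 and Klf4 at -0.48. The 3' minus 5' log2 signal of the pyruvate carboxylase control probe sets was 1.27 to 1.84 on number 1 and 0.156 to 0.872 on number 2 at day 4, without overlap, and at day 12 it overlapped (0.503 to 0.912 and 0.473 to 1.07). That of Gapdh was -0.279 to -0.214 on number 1 and -0.366 to -0.293 on number 2 at day 4, also without overlap, and those of actin and the transferrin receptor overlapped. The part of these measures in the difference of Atf4, Slc7a5 and Chac1 was not tested.

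At day 12 fewer genes passed between the numbers, in the lists as over all genes. Counts there stand beside 3.83% lower and 2.66% higher among all genes, where day 4 had 17.8% and 10.6%. Sesn2 was again lower, at -0.56 ± 0.12 (SE, log2), and Xbp1, a factor of the unfolded protein response, was lower at -0.33 ± 0.07. Aars and Phgdh lay the other way than at day 4, at 0.46 ± 0.09 and 0.26 ± 0.06. Eif2ak3 (PERK), the eIF2alpha kinase of the endoplasmic reticulum, was higher at 0.46 ± 0.07. Calr was higher at 0.43 ± 0.11 and Gclm, of glutathione synthesis, at 0.78 ± 0.10. None of the 21 further transporters passed, the largest being Slc7a1 at -0.43 ± 0.13. Fibroblast markers had 3 higher and 1 lower of 15 (Col1a1 0.81, Lox 0.78, Tnc 0.71), and of the ES cell markers Utf1 was higher at 0.45.

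The genes whose pattern over the 16 arrays was most like that of 3 members were found by the root mean square difference of mean-centred log2 values. Only genes with a mean at or above the median over all probe sets were searched, 11098 for Asns and Slc7a3 and 11099 for Slc7a11. Genes as dim as Slc7a11 were thus left out, and the medians are over the genes searched. For Asns the nearest were Ap1s1 (0.08), Dnajb1 (0.10) and Abcf2 (0.10), where the median gene stood at 0.40 and the spread of Asns about its own mean was 0.26. For Slc7a3 they were Gng3 (0.15), Cbr3 (0.15) and Ddx58 (0.17), against a median of 0.45 and an own spread of 0.33. For Slc7a11 the nearest were Atg2a (0.63), Npr1 (0.64) and Fsd1 (0.66), against a median of 0.94 and an own spread of 0.90. All 16 arrays share the 4 groups, so likeness here may reflect any of them.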

How the data were processed

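RNA of 16 ES cell samples was measured on 1-colour Affymetrix arrays. The deposited unit is linear intensity, made by the authors with RMA in Affymetrix Expression Console, per the submitters' processing notes; settings are not given in the sources used here. Sorted, all 16 deposited columns are identical, which is what quantile normalization leaves. The series text names the 430A 2.0 array, whereas the table holds 45101 probe sets. The number of arrays limits the precision.

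Values were log2-transformed without offset, although the design had assumed deposited log2 values. Of the probe sets, 64 were controls, 34945 carried 1 gene symbol, 932 several and 9160 none. The probe set with the highest mean stood for each of 18193 genes. limma 3.58.1 (statmod 1.5.0, R 4.3.3) was fitted to all 16 arrays with the 4 groups and clone as terms, moderated by empirical Bayes and adjusted by Benjamini-Hochberg at 0.05. Clone contrasts used a mean per clone and group, and replicate-number differences a number term within each day. Scripts were tested on simulated data. Alternatives were every probe set, a floor, bright genes only, housekeeping centring, an intensity-dependent prior, the replicate block, subsets of arrays and leaving out each array.

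Members and gene lists were chosen with earlier results of these data known. Named from a list are all genes past the threshold where there are at most 3, otherwise the 3 largest, and where none passed the largest among genes above the median intensity, for the KO and day comparisons. Arrays of the same clone, day and number deviated together (correlation of deviations from group means 0.52 to 0.58 at day 4 and 0.12 to 0.30 at day 12). Those of the same day and number but the other clone also tended to (median 0.47, range -0.02 to 0.62). Arrays with the same number are thus related beyond the pair of control and KO. The main fit for KO against control has no number term, so its SEs and p-values leave this out. Promoter sequences are from RefSeq (GRCm38.p6); those of Slc7a3, Slc6a15 and Slc7a5 were not used here.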

Additional observations from a re-analysis of the deposited data

How the results depend on the processing

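The count of members past the threshold was recomputed under each alternative. KO against control at day 4 called 1 member with all settings but 4, which called 0: every probe set with a single gene symbol, only the 8 arrays of that day, only the arrays numbered 1 and only those numbered 2. At day 12 it called 2, but 3 with bright genes only (Slc3a2 added), 4 with a floor at the 25th percentile of intensity or an intensity-dependent prior (Slc3a2 and Asns added), and 0 with only the 8 arrays of that day, only number 1 or only number 2. Untreated cells by day called 1, but 2 with the floor, with bright genes only, with the prior or with the replicate block (Asns added in each), and 0 within number 1 or number 2. The replicate number at day 4 called 3, and 4 with the prior (Slc7a3 added, higher). At day 12 it called 1, 2 with the prior and 0 with the arrays of that day alone. Leaving out each array in turn gave 0 to 1 members for KO at day 4 and 1 to 2 at day 12. Slc6a15 at day 12 and Slc3a2 between days passed in all 16 such fits. The interaction and clone comparisons called 0 members throughout.

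In the KO comparisons the replicate block pairs arrays of one clone, day and number. For untreated cells it is a number term shared by both days in the day comparison, and a number term within each day between clones. The shared term takes the number difference as equal at both days, whereas that of Slc7a5 was -0.76 at day 4 and 0.31 at day 12. With the block, Slc6a15 at both days and Slc7a3 at day 12 kept their calls. Members called stayed at 1 for KO at day 4, 2 for KO at day 12 and 0 for the interaction and the clone comparisons. Over all genes the block gave 850 higher and 626 lower at day 12 against 396 and 163 without it, 43 against 10 lower at day 4, 287 and 200 against 119 and 62 between days, and 11 and 17 against 7 and 4 between clones, where the prior gave 4 higher. Other settings that moved counts over all genes by more than 1.5 times gave 31 to 176 higher and 1 to 39 lower for KO at day 4, 194 to 622 and 54 to 284 at day 12, and 227 to 285 and 125 to 205 between days. Leaving out 1 array gave 62 to 102 higher and 1 to 10 lower genes for KO at day 4, 200 to 380 and 81 to 159 at day 12, 66 to 118 and 19 to 52 between days, 1 to 7 and 0 to 11 between clones, and 171 to 523 and 245 to 683 between the numbers at day 12. Within either number both KO comparisons and the day comparison called 0 genes. For the numbers at day 4 every probe set gave 4426 higher and 4770 lower against 1931 and 3247, and housekeeping centring 1311 and 4132. For the numbers at day 12 they were 777 to 988 and 936 to 1341 against 484 and 697, 371 and 856 when centred, and 0 and 1 within the day.

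Signs changed only for differences that were past the threshold neither before nor after. Centring turned KO at day 4 to -0.014 for Atf4 and -0.0012 for Asns, and the number difference at day 4 to -0.051 for Slc6a15, -0.11 for Slc3a2 and -0.057 for Asns. The floor turned that of Slc7a11 to 0.033. Within number 1, KO at day 4 was 0.94 for Slc7a11, 0.020 for Slc7a5 and -0.0033 for Asns, KO at day 12 was 0.066 for Chac1, and the day difference was 0.31 for Slc7a3, 0.17 for Slc6a15, -0.071 for Slc7a5 and 0.14 for Trib3. Within number 2, KO at day 4 was -0.033 for Atf4. Leaving out 1 array moved KO at day 4 between -0.11 and 0.18 for Atf4, -0.19 and 0.27 for Chac1, -0.92 and 0.086 for Slc7a11, -0.25 and 0.13 for Slc7a5 and -0.021 and 0.30 for Trib3, and KO at day 12 between -0.17 and 0.18 for Chac1. It moved the day difference of Slc7a3 between -0.11 and 0.064, the number difference at day 4 between -0.024 and 0.034 for Slc3a2 and -0.97 and 0.19 for Slc7a11, and that at day 12 between -0.13 and 0.019 for Slc7a3. Subsets hold fewer arrays and the floor fewer dim values; beyond that the cause was not tested.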
